A study of Mus musculus with 4 samples.

Results

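The laminin chains are the subunits of the laminins, and 9 of their genes were described here: the alpha chain genes Lama1, Lama2, Lama3, Lama4 and Lama5, the beta chain genes Lamb1, Lamb2 and Lamb3, and the gamma chain gene Lamc1. They were picked by gene symbol, in a choice made with earlier results of these data known. They make up 9 of the 18373 genes of the deposited table. 8 of them passed the filter on low counts, and Lama3 did not. The libraries were made from primary liver sinusoidal endothelial cells (LSECs) of 8-week-old Balb/c mice, which were plated on collagen and transfected for 48 h. 2 libraries received a control siRNA (NC) and 2 received siRNA against Airn, a long non-coding RNA (siAirn), and the comparison asks how the RNA of LSECs differs between these groups. The study's methods speak of 2 separate siRNAs, but the titles of both libraries of this group name siAirn1. The labels number each pair as biological replicates without naming the animals or cultures, so the p-values measure the spread between these libraries, which may be technical. Both groups shared the strain, the age and the coating of the wells.

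A laminin is a protein of one alpha, one beta and one gamma chain, which coil together in the cell before secretion. Many but not all laminins polymerise on receptors at the cell surface. They start the assembly of the basement membrane, to which type IV collagen, nidogens and perlecan are then tied. The sinusoids of the healthy liver lack a continuous basement membrane, and deposition of laminin beneath LSECs is one of the changes named capillarization, which accompanies liver fibrosis.

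The libraries held between 17308382 and 18371959 estimated counts. The targeted RNA, Airn, had 7 and 3 counts in the NC libraries and 11 and 9 in the siAirn libraries, a ratio of 1.97 with a 95% exact interval from 0.88 to 4.71, in which counting is the sole source of error. No lower count of Airn was thus seen in the libraries labelled siAirn, although the interval includes a lower level. Airn runs antisense to Igf2r, and counts made without regard to strand may not tell the 2 transcripts apart, which was not tested. Markers of the labelled cell type were present, with Cdh5, the endothelial cadherin, at 2625 and 2322 CPM (counts scaled to the library total after TMM adjustment) in NC and 1794 and 1524 CPM in siAirn, and Stab2, a scavenger receptor of LSECs, at 475 and 429 against 410 and 350 CPM. The list of 11 LSEC markers held 9 genes that were lower in siAirn and 0 that were higher, and 9 of the 12 pan-endothelial markers were lower, beside 8.56% of all genes called lower and 8.27% called higher. Without NC replicate 1 each list held 1 called gene, and without NC replicate 2 each held 0. These libraries are bulk samples, in which fewer cells of a type and less RNA per cell cannot be told apart, which holds for every chain described here.

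Per length, Lamc1 was the most abundant chain and Lama3 the least. The unit for comparing levels between genes was FPKM, in which counts are divided by transcript length and library total. In NC the mean FPKM was 31.4 ± 2.47 for Lamc1, 17.7 ± 1.56 for Lamb1, 17.3 ± 1.15 for Lama4, 8.69 ± 0.53 for Lamb2, 3.36 ± 0.42 for Lama5 and 0.86 ± 0.11 for Lamb3 (SD, n = 2). Lama2 followed at 0.22 ± 0.04 FPKM, Lama1 at 0.13 ± 0.02 and Lama3 at 0.04 ± 0.01. The libraries of Lamb1 and Lama4 overlapped in NC, so these neighbours could not be placed in an order there. In siAirn the order was Lamc1, Lamb1, Lama4, Lamb2, Lama5, Lamb3, Lama2, Lama1 and Lama3, and no neighbours overlapped. Levels from genes of these lengths rest on an effective transcript length that runs from 3883 bases for Lamb3 to 11345 bases for Lama5.

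**Figure D1:**
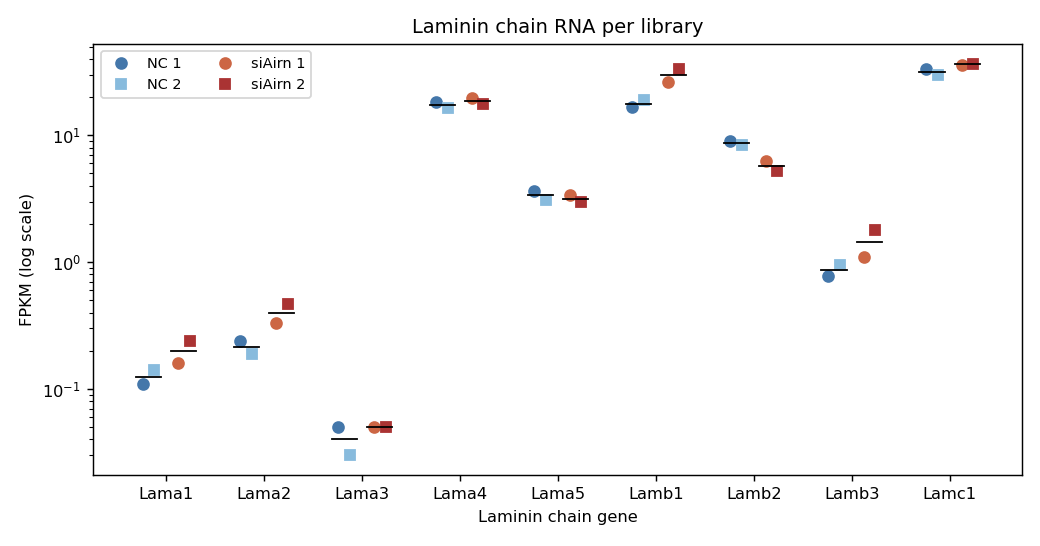
FPKM of the 9 laminin chain genes in each library, on a log axis. Circles and squares are replicates 1 and 2, blue is NC, red is siAirn, and each black line is the mean of 2 libraries. Lamb1 sits higher in both siAirn libraries and Lamb2 lower, while Lama4 and Lama5 overlap between the groups.

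Among the alpha chains none passed the threshold of an adjusted p under 0.05 in the quasi-likelihood test. The alpha chain carries the receptor-binding globular domains at its end, so it largely sets which receptor a laminin binds. Lama4, the alpha chain of endothelial and other vascular laminins (gene ID 16775, chr10:38965515-39110188, plus strand, GRCm38), had 18.15 and 16.53 FPKM in NC and 19.51 and 17.75 FPKM in siAirn. The groups overlapped, and the log2 fold change of siAirn over NC was 0.07 (SE 0.08, edgeR adjusted p = 0.584). Lama5, the other alpha chain of vessel walls and the main one of many adult epithelia (gene ID 16776, chr2:180176373-180225859, minus strand), had 3.66 and 3.06 FPKM in NC against 3.37 and 2.96 FPKM. These values overlapped too, with a log2 fold change of -0.11 (SE 0.11, edgeR adjusted p = 0.505).

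The remaining alpha chains were near the lower end of what these libraries could measure. Lama2, the merosin chain of muscle and peripheral nerve (gene ID 16773, chr10:26980036-27619758, minus strand), was counted 38 and 34 times in NC and 57 and 78 times in siAirn, or 0.24 and 0.19 against 0.33 and 0.47 FPKM. Both siAirn libraries lay above both NC libraries. The log2 fold change of Lama2 was 0.88 (SE 0.28), the highest of the chains tested, and its edgeR adjusted p was 0.072. Lama2 was called with the likelihood-ratio test (adjusted p = 0.0293) and with a replicate block (0.0284). DESeq2 gave Lama2 no adjusted p. Lama2 was not called in the other alternatives that kept all libraries, among them the fit with the length trend removed (log2 fold change 0.62, adjusted p = 0.193). Without 1 library its log2 fold change ran from 0.62 (siAirn replicate 2 left out) to 1.10 (siAirn replicate 1 left out). Lama1, the alpha chain of the early embryo and of some epithelia (gene ID 16772, chr17:67697259-67822647, plus strand), reached 18 and 24 counts in NC and 26 and 39 counts in siAirn. The groups of Lama1 did not overlap, the log2 fold change was 0.61 (SE 0.37) and the edgeR adjusted p was 0.29. With the length trend removed the log2 fold change of Lama1 was 0.34, and without siAirn replicate 2 it was 0.27. Lama1 and Lama2 were singled out by the study from these libraries, so their direction is no independent evidence. Lama3, the alpha chain of epithelial anchoring laminins (gene ID 16774), was at the limit of counting, 5 and 3 counts in the NC libraries and 6 and 5 counts in the siAirn libraries, a ratio of 1.35 with a 95% exact interval from 0.50 to 3.88. A difference in Lama3 was not detectable at this depth. A gene on the opposite strand overlaps 3.86% of the exon sequence in Lama2 and 1.83% in Lama3, and the use of strand in counting is not given in the sources used here.

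The beta chains moved in opposite directions. Lamb1 rose and Lamb2 fell, and both differences were larger than the spread between replicates. Lamb1, the beta chain of most embryonic and vascular laminins (gene ID 16777, chr12:31265234-31329644, plus strand), had 16.61 and 18.82 FPKM in NC and 26.23 and 33.28 FPKM in siAirn. In CPM it went from 99.6 ± 9.11 to 164.5 ± 28.4 (SD, n = 2). Both siAirn libraries lay above both NC libraries, and they also lay farther apart from each other than the NC libraries did. The fold was 1.65, with a log2 fold change of 0.72 (SE 0.12, edgeR adjusted p = 0.0142).

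Lamb2, which replaces Lamb1 in the laminins of mature vessels, the kidney filter and the neuromuscular junction (gene ID 16779, chr9:108479736-108490530, plus strand), had 9.06 and 8.31 FPKM in NC and 6.23 and 5.27 FPKM in siAirn. In CPM it went from 48.8 ± 2.59 to 31.5 ± 3.59 (SD, n = 2), with both siAirn libraries below both NC libraries. Its level in siAirn was 0.647 times that in NC, with a log2 fold change of -0.63 (SE 0.10, edgeR adjusted p = 0.012). Lamb3, a beta chain of epithelial anchoring laminins (gene ID 16780, chr1:193207699-193343878, plus strand), reached 52 and 67 counts in NC and 76 and 121 counts in siAirn. The groups of Lamb3 did not overlap. The log2 fold change was 0.71 (SE 0.28) and the edgeR adjusted p was 0.128. Lamb3 was called with a replicate block (adjusted p = 0.0238). Its log2 fold change was 1.02 without siAirn replicate 1 and 0.32 without siAirn replicate 2.

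Promoter stretches of Lamb1 and Lamb2 are shown because these were the chains that passed the test. They are the parts of the RefSeq promoter windows (GRCm38.p6, plus strand) that lie before the start RefSeq gives and outside every exon of the gene in GENCODE and that hold a CACCC match, chr12:31265043-31265233 for Lamb1 and chr9:108479779-108479856 for Lamb2. The GENCODE start of Lamb2 lies upstream of the RefSeq start, so the Lamb2 stretch is inside the GENCODE gene, between exons. Capitals mark the letters CACCC, which Krüppel-like and related zinc finger factors are known to bind, and the GC box GGGCGG, on either strand.
Lamb1: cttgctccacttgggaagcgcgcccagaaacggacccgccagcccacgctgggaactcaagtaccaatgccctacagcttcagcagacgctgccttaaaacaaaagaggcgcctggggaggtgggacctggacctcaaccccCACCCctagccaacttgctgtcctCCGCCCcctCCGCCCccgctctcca
Lamb2: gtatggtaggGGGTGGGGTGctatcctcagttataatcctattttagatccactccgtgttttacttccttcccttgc

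The Lamb1 stretch holds 1 CACCC match and 2 GC boxes, and 63.9% of its 191 bases are G or C. The Lamb2 stretch holds 2 CACCC matches and 0 GC boxes, and 46.2% of its 78 bases are G or C. Over whole windows of 300 bases, matches to CACCC numbered 3 for Lama2, 0 for Lama5, 1 for Lamb1, 2 for Lamb2, and 4 and 3 for the 2 windows of Lamb3. GC boxes numbered 1 for Lama2, 4 for Lama5 and 2 for Lamb1, with 0 for Lamb2 and Lamb3, and none of these windows held the TATA box TATAAA. Among all 32851 mouse windows, CACCC occurs in 57.5%, the GC box in 35.7% and the TATA box in 13.6%, and the motifs share no letters where they are marked. These are matches of letters only. Windows were matched for 5 of the 9 chains, leaving out Lama1, Lama3, Lama4 and Lamc1.

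Lamc1, the gamma chain of nearly all laminins outside epithelial anchoring sites (gene ID 226519, chr1:153218922-153332786, minus strand), had 33.15 and 29.66 FPKM in NC and 35.73 and 36.74 FPKM in siAirn. Both siAirn libraries lay above both NC libraries, by a small margin. The log2 fold change was 0.17 (SE 0.07) and the edgeR adjusted p was 0.152.

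Over the 8 chains tested, 2 were called at an adjusted p under 0.05, beside 16.8% of the 13628 genes tested. The 1 chain called higher, Lamb1, stands beside 8.27% of genes called higher, and the 1 called lower, Lamb2, beside 8.56% called lower. Lama2, Lamb1, Lamb2 and Lamb3 passed the threshold of the study's methods, a fold change over 1.4 with an unadjusted p under 0.05, beside 9.96% of genes. The groups did not overlap in CPM for Lama1, Lama2, Lamb1, Lamb2, Lamb3 and Lamc1, 6 of the 8, beside 62.7% of genes. The median log2 fold change over the 8 chains was 0.389 and that over all genes tested was 0.001, with 6 chains above 0 and 2 below.

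Transcript length moved with the comparison and bears on this family, because laminin transcripts are long. Across 13622 genes the log2 fold change correlated with effective length (Spearman's rho 0.399, a description across genes of the same 4 libraries, which are not independent replicates). When the genes tested were split into 5 equal bins of length, the bin of the longest transcripts had a median log2 fold change of 0.205, with 23.3% of genes called higher and 2.42% called lower. 7 of the 8 chains lie in that bin and Lamb3 in the next. With the length trend removed from each library, the log2 fold change of Lamb1 was 0.54 (SE 0.13, edgeR adjusted p = 0.0531), which no longer passed the threshold, and that of Lamb2 was -0.81 (SE 0.10, adjusted p = 0.0113), which did. In this fit Lama5 had a log2 fold change of -0.39 (adjusted p = 0.0614), Lamc1 turned to -0.07 and Lama4 to -0.13, and the median of the chains was 0.137. With trends on both length and GC content removed, the log2 fold change of Lamb1 was 0.66 (adjusted p = 0.0289), that of Lamb2 was -0.62 (adjusted p = 0.018) and that of Lama4 was -0.05. The NC libraries also bear on both calls: without NC replicate 1 the log2 fold change was 0.63 for Lamb1 (SE 0.16, adjusted p = 0.105) and -0.58 for Lamb2 (SE 0.13, adjusted p = 0.0904). Without NC replicate 2 it was 0.82 for Lamb1 (SE 0.17, adjusted p = 0.108) and -0.68 for Lamb2 (SE 0.13, adjusted p = 0.102). The SE was larger than with all libraries in each of these cases, and 40 and 0 genes were called in all. At an unadjusted p under 0.05 these 2 fits held 3506 and 3106 genes.

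**Figure D2:**
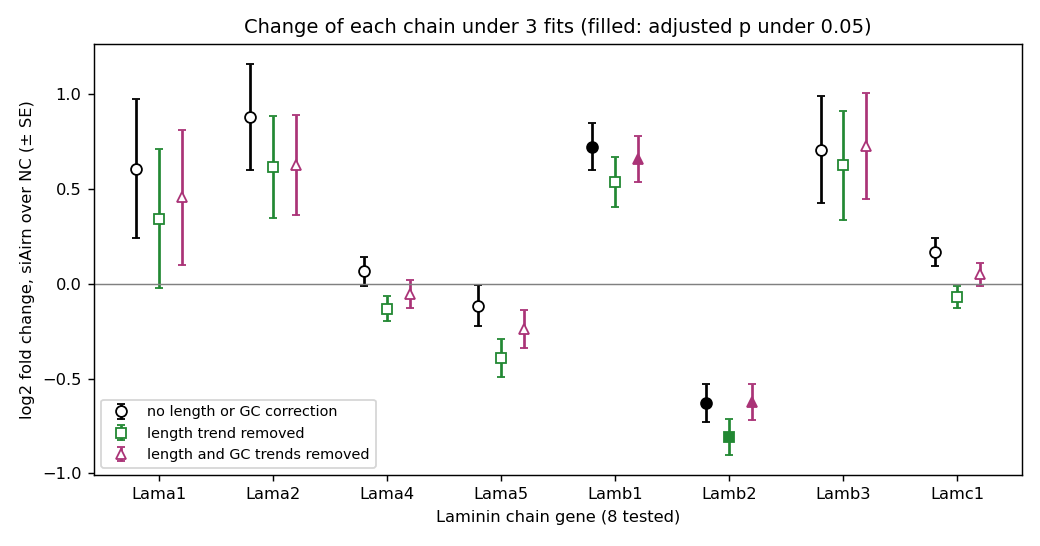
The log2 fold change of siAirn over NC with its SE for the 8 chains tested by edgeR, without correction (circles), with the length trend removed (squares) and with the length and GC trends removed (triangles). Filled symbols passed an adjusted p under 0.05. Lamb2 is filled in all 3 fits and Lamb1 in 2 of them, missing it at 0.0531 with the length trend removed, and the bars of Lama1, Lama2 and Lamb3 are the longest.

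Within the beta class, Lamb1 took a larger share in siAirn. The shares are parts of the summed FPKM of a class, so they compare chains within one library. Lamb1 made up 62.8% and 67.05% of the beta chain level in NC and 78.18% and 82.52% in siAirn, a mean of 64.9% ± 3.00 against 80.4% ± 3.07 (SD, n = 2). The difference was 15.4 percentage points and the groups did not overlap. Lamb2 took the opposite course, with 34.25% and 29.6% in NC and 18.57% and 13.07% in siAirn. Lamb3 stayed between 2.95% and 4.41% in the 4 libraries. The ratio of Lamb1 to Lamb2 was 1.83 and 2.27 in NC and 4.21 and 6.32 in siAirn. An exact permutation test of 2 against 2 libraries cannot go below a two-sided p of 0.333, so no test is given for the shares.

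The make-up of the alpha class differed less. Lama4 held 81.72% and 82.86% of the alpha chain level in NC and 83.3% and 82.67% in siAirn, which overlapped. Lama5 held 16.48% and 15.34% in NC and 14.39% and 13.79% in siAirn, a mean of 15.9% ± 0.81 against 14.1% ± 0.43, without overlap. Lama1, Lama2 and Lama3 together fill the small rest, where Lama2 had 1.08% and 0.95% in NC and 1.41% and 2.19% in siAirn.

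**Figure D3:**
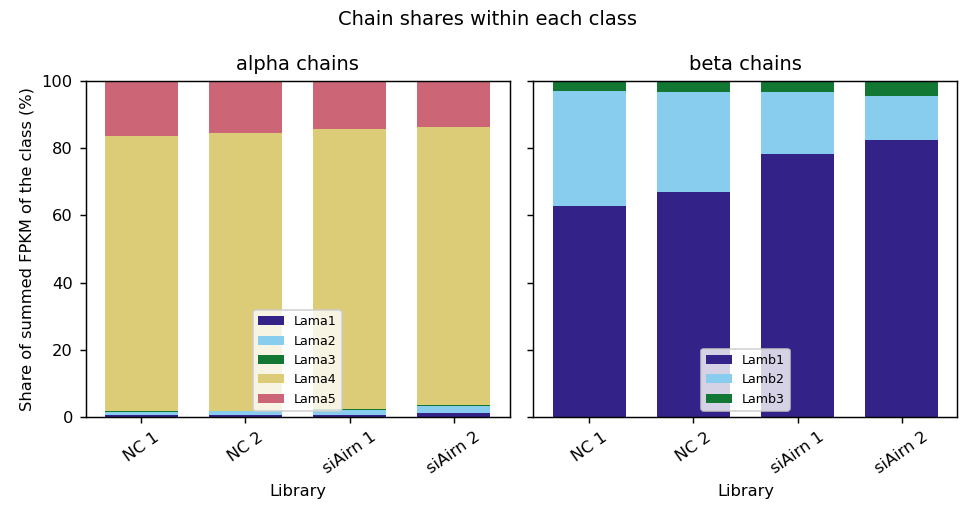
Share of each chain in the summed FPKM of the alpha and of the beta chains in each library (bars from 0 to 100%). Lamb1 fills 62.8% and 67.05% of the beta bar in NC and 78.18% and 82.52% in siAirn, whereas Lama4 fills between 81.72% and 83.3% of the alpha bar in every library.

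The summed level per class moved mainly in the beta chains. The beta chains summed to 26.45 and 28.07 FPKM in NC and 33.55 and 40.33 FPKM in siAirn. The alpha chains summed to 22.21 and 19.95 against 23.42 and 21.47 FPKM, with overlap. Lamc1 alone lay above the beta sum in NC replicates 1 and 2 and in siAirn replicate 1, and below it in siAirn replicate 2.

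The chains could form several trimers, which are named by the numbers of their alpha, beta and gamma chains. For each of 10 known trimers the chain with the least RNA was taken, a description of RNA and not of assembled protein, and chains shared by several trimers were not divided among them. Laminin 411 (Lama4, Lamb1, Lamc1), the isoform of most endothelial basement membranes, had the highest lowest-chain level, 16.61 and 16.53 FPKM in NC and 19.51 and 17.75 FPKM in siAirn. Its lowest chain was Lamb1 in NC replicate 1 and Lama4 in the other 3 libraries. Laminin 421 (Lama4, Lamb2, Lamc1) was limited by Lamb2 in all 4 libraries and therefore carries the Lamb2 values, 9.06 and 8.31 FPKM against 6.23 and 5.27 FPKM. The groups did not overlap for either trimer, beside 62.7% of genes tested that did not overlap in CPM. For laminin 411 this rests on Lamb1 being the lowest chain in NC replicate 1. Lama4 itself overlapped, at 18.15 and 16.53 FPKM in NC and 19.51 and 17.75 FPKM in siAirn. Laminin 411 lay above laminin 421 in every library. On the log2 scale the laminin 411 level differed by 0.17 (siAirn over NC), and by 0.10 to 0.24 without 1 library.

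Laminins 511 and 521 (Lama5 with Lamb1 or Lamb2), which bind integrins strongly, were both limited by Lama5, at 3.66 and 3.06 FPKM in NC and 3.37 and 2.96 FPKM in siAirn, with overlap. Every library thus held more RNA of each chain of laminin 411 than of Lama5. Laminins 211 and 221 were limited by Lama2 and laminins 111 and 121 by Lama1, all under 0.5 FPKM. Laminins 311 and 321 were limited by Lama3, which had no more than 0.05 FPKM in any library.

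**Figure D4:**
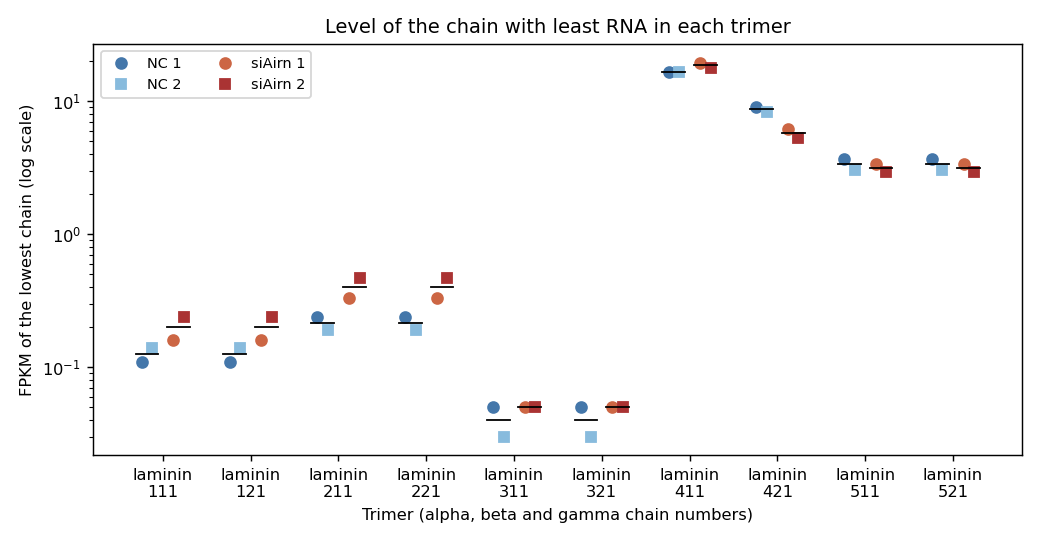
FPKM of the chain with the least RNA in each of 10 laminin trimers, on a log axis, with 1 point per library and a line at the mean of 2 libraries. Laminin 411 is highest, at 16.53 to 19.51 FPKM, laminin 421 follows at 5.27 to 9.06 FPKM with both siAirn libraries below both NC libraries, and the trimers of Lama1, Lama2 and Lama3 lie under 0.5 FPKM.

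Of the basement membrane partners of laminin, 0 rose and 4 fell among the 15 genes tested, beside 8.27% and 8.56% of all genes, with a median log2 fold change of -0.049. Ntn4, the netrin that binds laminin gamma chains and breaks up laminin networks, had 24.36 and 25.08 FPKM in NC and 17.18 and 13.55 FPKM in siAirn (log2 fold change -0.87, SE 0.10, edgeR adjusted p = 0.00574). Sparc, a collagen-binding matrix glycoprotein and the most abundant gene of the list, went from 1876.83 and 1803.43 to 1424.11 and 1315.57 FPKM (log2 fold change -0.46, adjusted p = 0.00805). Tinagl1, a secreted glycoprotein of basement membranes, fell by 0.42 on the log2 scale (adjusted p = 0.0298). With the length trend removed the log2 fold change of Tinagl1 was -0.35 (adjusted p = 0.0917). With length and GC trends removed it was -0.24 (adjusted p = 0.192). Col4a2, a chain of the type IV collagen network, fell by 0.32 (adjusted p = 0.0148), and its partner Col4a1 had 581.53 and 563.9 FPKM in NC and 528.2 and 532.77 FPKM in siAirn (adjusted p = 0.108). The linkers between laminin and collagen did not pass the test: Nid1, nidogen 1, had a log2 fold change of 0.28 (adjusted p = 0.0578) and Hspg2, perlecan, one of -0.12 (adjusted p = 0.495). Col4a1, Nid1 and Hspg2 were named after their values were seen.

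Of the 21 laminin receptor genes tested, 3 rose and 4 fell, beside 8.27% and 8.56% of all genes, and their median log2 fold change was -0.003. 3 were called in either direction with the length trend removed, 3 with length and GC trends removed, and 0 without either NC library. Those that rose were integrin alpha subunits. Itga2, a subunit of a collagen and laminin receptor, had 0.76 and 0.76 FPKM in NC and 1.21 and 2.17 FPKM in siAirn (log2 fold change 1.12, SE 0.30, edgeR adjusted p = 0.0488). Without siAirn replicate 2 the log2 fold change of Itga2 was 0.63 (adjusted p = 0.177), and its call held in 4 of 11 alternatives that kept all libraries. Itgav, the alpha subunit of vitronectin receptors, had 16.93 and 18.47 against 26.52 and 32.42 FPKM (log2 fold change 0.60, adjusted p = 0.0168). With the length trend removed the log2 fold change of Itgav was 0.39 (adjusted p = 0.0828), and with length and GC trends removed it was 0.35 (adjusted p = 0.0877). Itga1 had a log2 fold change of 0.38 (adjusted p = 0.0241). Bcam, an adhesion molecule that binds the alpha 5 chain, had 19.02 and 18.21 FPKM in NC and 9.85 and 9.37 FPKM in siAirn (log2 fold change -0.99, SE 0.08, adjusted p = 0.00496). Itga3, a subunit of a receptor for laminin 511, had 29.54 and 30.09 against 18.31 and 17.7 FPKM (log2 fold change -0.75, adjusted p = 0.00496). Cd151, the tetraspanin partner of laminin-binding integrins, and Sgce, a sarcoglycan, were the other genes that fell, by 0.22 and 0.41 on the log2 scale (adjusted p = 0.0462 and 0.0238). Itga1, Cd151 and Sgce lie outside the naming rule and complete the counts.

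The receptor subunits that most laminins share did not pass the test. Itgb1, the common integrin beta subunit, had 317.51 and 296.79 FPKM in NC and 329.28 and 331.71 FPKM in siAirn (log2 fold change 0.07, edgeR adjusted p = 0.474). Itga6 had a log2 fold change of 0.05 (adjusted p = 0.773) and Dag1, dystroglycan, one of 0.12 (adjusted p = 0.322). Rpsa, named the laminin receptor but also a ribosomal protein, was the most abundant gene of the list, at 1398.83 and 1425.85 FPKM in NC and 1287.67 and 1241.39 FPKM in siAirn (log2 fold change -0.20, adjusted p = 0.0512). Itgb1, Itga6 and Dag1 were named after their values were seen. Of the 10 enzymes analysed that glycosylate dystroglycan for laminin binding, edgeR called 0 at an adjusted p under 0.05, beside 16.8% of all genes, with 3 at an unadjusted p under 0.05, beside 4631 of the 13628 genes, and a median log2 fold change of -0.073.

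Of 15 proteases tested that are known to cleave laminins or to process their chains, 2 rose and 4 fell, beside 8.27% and 8.56% of all genes, with a median log2 fold change of 0.132. The lysosomal cathepsins Ctsb, Ctss and Ctsl fell. Ctsb had 1321.6 and 1451.47 FPKM in NC and 712.59 and 706.38 FPKM in siAirn (log2 fold change -0.94, SE 0.07, edgeR adjusted p = 0.00284), and Ctss had 36.24 and 31.52 against 21.57 and 14.25 FPKM (log2 fold change -0.95, adjusted p = 0.0199). Ctss is also expressed by macrophages, and 7 of 11 macrophage markers tested were lower in siAirn, beside 8.56% of all genes, or 2 called with the length trend removed. The part of macrophages in the level of Ctss was not tested. The matrix metalloproteinase Mmp2 rose, from 4.57 and 4.46 to 7.37 and 6.35 FPKM (log2 fold change 0.56, adjusted p = 0.0216). Adamts1, a secreted protease with thrombospondin repeats, rose from 24.85 and 26.97 to 33.71 and 43.11 FPKM (log2 fold change 0.53, adjusted p = 0.0291). With the length trend removed the log2 fold change of Adamts1 was 0.39 (adjusted p = 0.104). With length and GC trends removed it was 0.46 (adjusted p = 0.061), and without siAirn replicate 2 it was 0.33. Ctsl and Mmp14, the membrane-bound metalloproteinase that activates Mmp2, were the other genes that fell, by 0.35 and 0.48 on the log2 scale (adjusted p = 0.0122 and 0.00807), and both lie outside the naming rule.

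**Figure D5:**
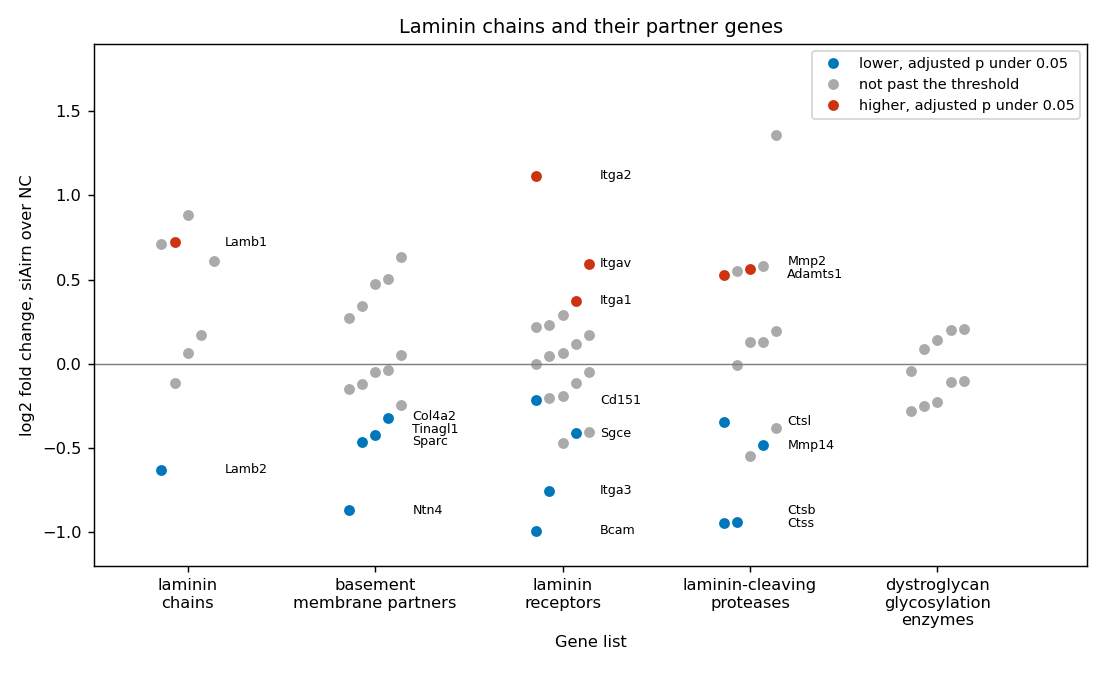
The log2 fold change of siAirn over NC for each tested gene of the laminin chains and of 4 lists of partner genes, red where higher and blue where lower at an edgeR adjusted p under 0.05. The chains hold 1 gene of each colour, the basement membrane partners 4 lower, the receptors 3 higher and 4 lower, the proteases 2 higher and 4 lower, and the dystroglycan glycosylation enzymes 0.

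Other cells of the liver also make laminins, and the markers of several moved with the groups. The study's methods describe a density gradient and magnetic beads against CD146, an endothelial surface protein, which should remove most of these cells. The study checked purity by microscopy and by qRT-PCR of marker genes. Of 14 stellate cell and fibroblast markers 5 were higher in siAirn and 0 were lower, beside 8.27% and 8.56% of all genes, and all 14 had a log2 fold change above 0. Their summed level was 1840 and 2210 CPM in NC and 2172 and 2777 CPM in siAirn, which overlapped. Those called higher were Col3a1 (log2 fold change 0.76, edgeR adjusted p = 0.00509), Reln (0.98, 0.00946), Postn (0.48, 0.00793), Acta2 (0.33, 0.0256) and Lum (0.43, 0.0379), which lie outside the naming rule. Tagln and Dcn, highest of the list in CPM, had adjusted p of 0.733 and 0.374. Of the defining stellate markers, Col1a1 had 207 and 215 CPM in NC and 224 and 292 CPM in siAirn, and Lrat had 3.91 and 7.68 against 8.63 and 12.1 CPM. The hepatocyte sum was 593.5 and 759.9 CPM in NC and 826.9 and 1072 CPM in siAirn, with Alb and Serpina1c highest in CPM and with 1 of 10 markers called higher and 0 lower, beside 8.27% and 8.56% of all genes.

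Of the 11 cholangiocyte and epithelial markers and the 8 mesothelial markers 0 were called by edgeR in either direction, beside 16.8% of all genes, with 2 and 1 at an unadjusted p under 0.05. Their summed levels were 444.8 and 634.1 against 568.1 and 802 CPM, and 404 and 582.5 against 518.4 and 748.6 CPM. Krt8 and Krt18 stand in both lists, were highest in CPM in each and made up most of both sums. In NC Krt8 had 166.7 and 245.6 CPM and Krt18 had 222 and 326.3 CPM. The sums are therefore largely those of the same genes. The defining markers were low but not at 0, Epcam between 0.57 and 1.63 CPM and Msln between 0.66 and 1.44 CPM in the 4 libraries, where 3 counts stand for 0.166 to 0.175 CPM. Macrophage markers, with Lyz2 and Cd68 highest in CPM, had sums of 243.2 and 310.2 CPM in NC and 185.9 and 156.2 CPM in siAirn. Of the LSEC markers Oit3 and Stab1 were highest in CPM, which does not correct for length, and the list summed to 3839 and 3883 CPM in NC and 2724 and 2468 CPM in siAirn. Eng and Cdh5 were highest in CPM in the pan-endothelial list, which summed to 11080 and 10520 against 7984 and 6997 CPM. Without NC replicate 1 or 2, at most 1 gene of any of these marker lists was called. Without siAirn replicate 1 the calls numbered 12 of the stellate cell and fibroblast, 9 of the macrophage, 4 of the hepatocyte, 3 of the epithelial and 2 of the mesothelial markers. Without siAirn replicate 2 they numbered 3 of the stellate cell and fibroblast, 4 of the macrophage and 0 of the hepatocyte, epithelial and mesothelial markers. Each of these fits took its spread from the group that kept 2 libraries. The part of these cell types in the levels of Lamb1, Lamb2 and the other chains was not tested.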

How the data were processed

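The 4 RNA-seq libraries, 2 NC and 2 siAirn, were grouped by their labels, and no other assay of the study was used here. The values came from 1 table of 18373 genes that the authors deposited. Its estimated counts, deposited without normalization, are exactly whole in 76.5% to 76.8% of entries, those at 0 included. The unit of the other values is not named in the header, and the authors' values were treated as FPKM, since they scale with count, length and library total. The 4 columns of the authors' means were not used. The submitters' processing notes name BWA, Bowtie2, RSEM and the human build hg19 without a role, although samples and gene IDs are mouse. How strand was treated is not given in the sources used here.

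Counts were rounded and tested in R 4.3.3 with edgeR 4.0.16: TMM factors from 0.985 to 1.02, filterByExpr, the quasi-likelihood test without covariates, and Benjamini-Hochberg adjustment over 13628 genes. The SE is that implied by the F statistic. The scripts were tested on simulated data. Alternatives were DESeq2 1.42.0, limma 3.58.1 on log2(FPKM + 1) and log2(FPKM + 0.1) at a mean FPKM of at least 1 or without that filter, upper-quartile factors, other count filters, a likelihood-ratio test, a replicate block, offsets for length and GC content (natural splines, 5 degrees of freedom), other thresholds, TPM from the counts, and leaving out each library. Leaving out a library leaves 1 in its group, so the spread of such a fit comes from the other group alone. Genes were located in GENCODE M21 (GRCm38).

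The members, gene lists and tests were chosen with earlier results of these data known. The naming rule covers all members, Airn, up to 4 called genes of each partner list by size of change and its most abundant gene (not for the dystroglycan enzymes), the 2 genes highest in CPM of each marker list, and Stab2, Cdh5, Col1a1, Lrat, Epcam and Msln. Col4a6 was listed but not analysed here, and some items of the lists are not reported here.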

Additional observations from a re-analysis of the deposited data

How the results depend on the processing

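Lamb1 was called in 9 and Lamb2 in 10 of 11 alternatives that kept all libraries, and the direction of each held in all of them. The number of chains called, 2, became 0 with limma without a filter (0 genes in all, with 4418 genes and 4 chains at an unadjusted p under 0.05), 1 with the length trend removed, 3 with the likelihood-ratio test and 0 to 4 when 1 library was left out. All genes called, 2294, became 0 with limma without a filter, 1306 with the length trend removed, 1045 with length and GC trends removed, and 0 to 2410 without 1 library. Chains past the study's threshold, 4, became 2 with DESeq2, each limma fit, the length trend removed or an unadjusted p under 0.01, 0 at a fold change over 2, and 2 to 4 without 1 library. The median of the chains, 0.389, was 0.15, 0.155 and 0.098 in the limma fits, which cover fewer chains or shrink low ones, 0.137 with the length trend removed, and 0.206 to 0.54 without 1 library. A replicate block called 4841 genes, 5 chains (with Lama2, Lamb3 and Lamc1), 11 receptors and 2 glycosylation enzymes. Numbers shared by 2 pairs, whose deviations correlated at 0.221, were not taken to pair the libraries. Called receptors, 7, became 0 with limma without a filter and 3 in both length fits. Called partners and proteases, 4 and 6, became 0 with limma without a filter. Without 1 library these lists ran from 0 to 8, 0 to 6, 0 to 7 and 0 to 0. Without siAirn replicate 1 the log2 fold change was 1.10 for Lama2 and 1.02 for Lamb3. Among alternatives that kept all libraries, the call of Itga2 held in 4 of 11, that of Tinagl1 in 6, those of Itgav and Adamts1 in 8, that of Ctss in 9 and those of Bcam, Itga3, Ntn4, Sparc, Col4a2, Ctsb and Mmp2 in 10. Directions turned for Lama4 (-0.13 with the length trend removed and -0.053 with length and GC), Lamc1 (-0.069 with the length trend removed) and Lama5 (-0.235 to 0.011 without 1 library, 0.011 without NC replicate 1). The log2 ratio of the laminin 511 level, -0.086, turned to 0.049 without NC replicate 1 and 0.004 without siAirn replicate 2. The causes were not tested. Marker calls were 0 in every list with limma without a filter. With length and GC trends removed they were 3 for stellate cells and fibroblasts, 2 for macrophages, 2 for hepatocytes, 1 for epithelium, 6 for pan-endothelial and 11 for LSEC markers, and with a replicate block 12, 10, 5, 3, 10 and 11, with 2 mesothelial. The shares of Lamb1, Lamb2, Lama4 and Lama5 and the levels of laminins 411, 421 and 511 were recomputed with TPM, which moved each by less than 1 SD between replicates, and without 1 library, where the Lamb1 share was 13.3 to 17.6 percentage points higher in siAirn. Counts were low for Lama1, Lama2, Lama3 and Lamb3.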
